A study of Mus musculus with 18 samples.

Results

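Small RNA libraries of mouse embryonic stem cells given cisplatin were compared with those of cells given vehicle alone. The comparison rests on 6 of the 18 libraries of the series, 3 for cisplatin and 3 for the control, chosen by their labels and not by any measured value. The other libraries were made for messenger RNA sequencing and for RNAome sequencing, a preparation that reads long and small RNA together, and carry the same RNA sample codes. All groups were HPRT-deficient stem cells of strain C57BL/6, so the controls lacked HPRT, an enzyme of purine salvage, as well. The cells had been passaged on feeder cells and then on gelatin, which leaves feeder cells as a possible source of RNA. Cisplatin was used at 2.5 µM and the control received DMSO; the sources used here do not state how long the cells were exposed. Counts were summed over read sequences to 569 mature microRNA names and 45 tRNA anticodons. The labels do not say that the replicates were separate cultures, so the p-values measure the spread between these libraries, which may be technical.

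Cisplatin is a platinum compound that crosslinks DNA and activates the p53 response. MicroRNAs are cut from hairpin precursors, and 1 arm of a hairpin, named 5p or 3p, usually gives the more abundant mature strand. The seed near the 5′ end of that strand pairs with target messenger RNAs. Mouse stem cells are known for very high levels of the microRNAs of the miR-290-295 cluster. The miR-34 microRNAs are textbook targets of p53, the miR-200 family is known for holding cells in an epithelial state, and small RNA reads from tRNAs include long 5′ fragments and shorter 3′ fragments.

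The microRNAs on which the results turn are shown first, so that those sharing a seed can be seen together. Sequences are the RefSeq mature forms (build GRCm38.p6), which were matched by name for 429 of the 543 microRNAs tested; that of miR-34c-5p is the most abundant read in the deposited table. Capitals mark the seed, bases 2 to 8.
miR-200b-3p: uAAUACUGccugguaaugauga
miR-429-3p: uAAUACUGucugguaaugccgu
miR-200c-3p: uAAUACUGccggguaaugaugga
miR-200a-5p: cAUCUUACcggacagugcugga
miR-200b-5p: cAUCUUACugggcagcauugga
miR-96-5p: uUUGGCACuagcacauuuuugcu
miR-34a-5p: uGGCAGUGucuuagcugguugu
miR-34b-5p: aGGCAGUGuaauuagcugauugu
miR-34c-5p: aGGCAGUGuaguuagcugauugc
miR-34b-3p: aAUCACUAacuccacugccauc
miR-410-5p: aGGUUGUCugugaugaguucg
The first 3 share a seed, as do miR-200a-5p with miR-200b-5p and the 5p strands of miR-34a, miR-34b and miR-34c.

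The libraries held between 4826269 and 13428891 counts, of which 51.1% to 62.9% were in microRNAs. Levels are given as CPM, the share of a library's microRNA and tRNA counts put on a common total, scaled by TMM, a method that equalises the bulk of features between libraries. Log2 CPM correlated between libraries at r = 0.9887 to 0.9957 within a group and 0.9838 to 0.9925 between groups. Control library 2 stood apart from the other controls and held miR-5109 at 3362 CPM, against 290 to 381 CPM in the other 5 libraries. The 14 microRNAs of the miR-290-295 cluster together held 231700 to 245500 CPM with cisplatin and 259300 to 279800 CPM in the controls. The defining microRNAs of the labelled cell type were thus present in both groups. MicroRNAs known from fibroblasts and mesenchyme, the kind of cell used as feeders, summed to 4041 to 6476 CPM with cisplatin and 4411 to 5545 CPM in the controls. None of the 8 tested fell and 1 of 8 rose (miR-145a-3p, below), where 4.79% of all microRNAs rose. The main strand miR-143-3p ranged from 3287 to 4760 CPM with cisplatin and from 3156 to 3974 CPM in the controls. Markers of muscle, nerve, blood and endothelium summed to 2824 to 3184 CPM with cisplatin and 3021 to 3556 CPM in the controls, with 0 of 13 called. At an unadjusted p under 0.05 in edgeR, 1 of 13 was higher, beside 58 of all 543 microRNAs. The part of feeder or other differentiated cells in the results was not tested. The lowest value of any microRNA or tRNA row was 5, which acts like a fill value, so a level of a few CPM is an upper limit where all its counts are 5.

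Of 543 microRNAs tested, 26 rose with cisplatin (4.79%) and 11 fell (2.03%), at an adjusted p under 0.05 in edgeR's quasi-likelihood test. All 13 tRNA anticodons that changed rose, out of 45 tested. Over microRNAs and tRNAs together, 39 of 588 features rose (6.63%) and 11 fell (1.87%). Cisplatin and control libraries did not overlap in 166 of the 588 features (28.2%), and the median log2 change of all features was -0.04. Of the 543 microRNAs, 322 were below 0 and 221 above 0. Only 11 of the 50 calls held whichever library was left out: miR-200a-5p, miR-200b-3p, miR-429-3p, miR-96-5p, miR-99b-5p, miR-501-3p, miR-1193-3p, miR-410-5p and the anticodons GlyTCC, HisGTG and ProTGG. Leaving out 1 library gave 7 microRNAs higher without control library 1, 10 without control library 3, 15 to 16 without any one cisplatin library and 27 without control library 2. The microRNAs called lower numbered 7 without cisplatin library 1 or control library 2, 3 without control library 3 and 2 without any one of the other libraries. The same 3 library indexes were used in both groups, so at least 2 pools were sequenced; the sources used here do not say which libraries shared one, and pool and treatment cannot be told apart.

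**Figure D1:**
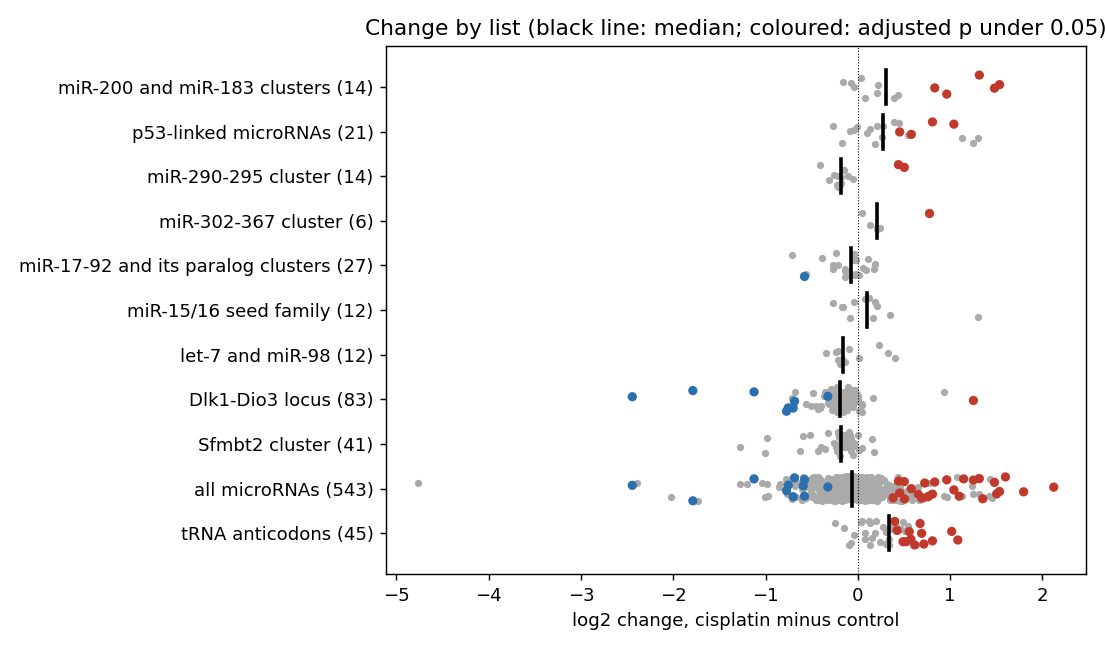
Log2 change with cisplatin for each microRNA of 9 lists, all 543 microRNAs and the 45 tRNA anticodons, with the number of members in brackets. Each point is a microRNA or anticodon, the black line is the median, and red or blue points are those called higher or lower; the tRNA median of 0.34 lies to the right of the microRNA median of -0.06.

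The cluster of miR-200b, miR-200a and miR-429 rose in 4 of its 5 tested strands. Its 3 hairpins lie side by side on the minus strand of chromosome 4 (mm9), at chr4:155429790-155429859, chr4:155429005-155429094 and chr4:155428014-155428096. All 3 lie in an intron of Ttll10 in GENCODE vM1, and Mir429 also overlaps an exon of the processed transcript Gm13648. miR-200b-3p, the main strand of its hairpin, was at 2822, 3024 and 2577 CPM in the cisplatin libraries and at 1109, 1102 and 808 CPM in the controls. On the log2 scale it rose by 1.48 (SE 0.14), with an adjusted p of 0.00101. miR-200a-5p, the minor strand of its hairpin, was at 66.2, 65.7 and 69.7 CPM against 22.1, 24.1 and 23.5 CPM. It rose by 1.54 (SE 0.12, adjusted p = 0.000746), and the control libraries were all at 24.1 CPM or less while the cisplatin libraries were all at 65.7 CPM or more. miR-429-3p was at 684, 700 and 714 CPM with cisplatin and at 420, 398 and 359 CPM in the controls, a log2 rise of 0.83 (SE 0.10, adjusted p = 0.00276). miR-200b-5p rose by 1.32 (SE 0.23, adjusted p = 0.0136) from a mean of 6.07 to 14.4 CPM; its call was lost without cisplatin library 2, control library 1 or control library 3, with an adjusted p of up to 0.058. miR-200a-3p, the main strand of its hairpin, was higher in all 3 cisplatin libraries but did not pass the test, at a log2 change of 0.43 (SE 0.12, adjusted p = 0.0668).

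The other miR-200 locus, which holds miR-200c and miR-141, gave no call. miR-200c-3p, which shares its seed with miR-200b-3p and miR-429-3p, was at 75.5, 58.9 and 68.1 CPM with cisplatin and at 55.9, 58.6 and 60.3 CPM in the controls, and the groups overlapped. Its log2 change was 0.21 (SE 0.14, adjusted p = 0.413), and that of miR-141-3p was -0.05 (SE 0.15, adjusted p = 0.893). In the miR-183 cluster on chromosome 6, miR-96-5p (chr6:30119446-30119551) was the 1 strand called of 6 tested. It was at 721, 813 and 739 CPM with cisplatin against 468, 347 and 350 CPM, a log2 rise of 0.96 (SE 0.14, adjusted p = 0.00724). Its neighbours miR-182-5p, at 94591 to 114206 CPM, and miR-183-5p changed by 0.07 (adjusted p = 0.697) and 0.22 (adjusted p = 0.316), and the differences between neighbours were not tested. In all, 5 of the 14 tested strands of the miR-200 and miR-183 clusters rose and none fell, beside 4.79% higher over all microRNAs, with a median of 0.30 beside -0.06. The count was 4 or 5 whichever library was left out.

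**Figure D2:**
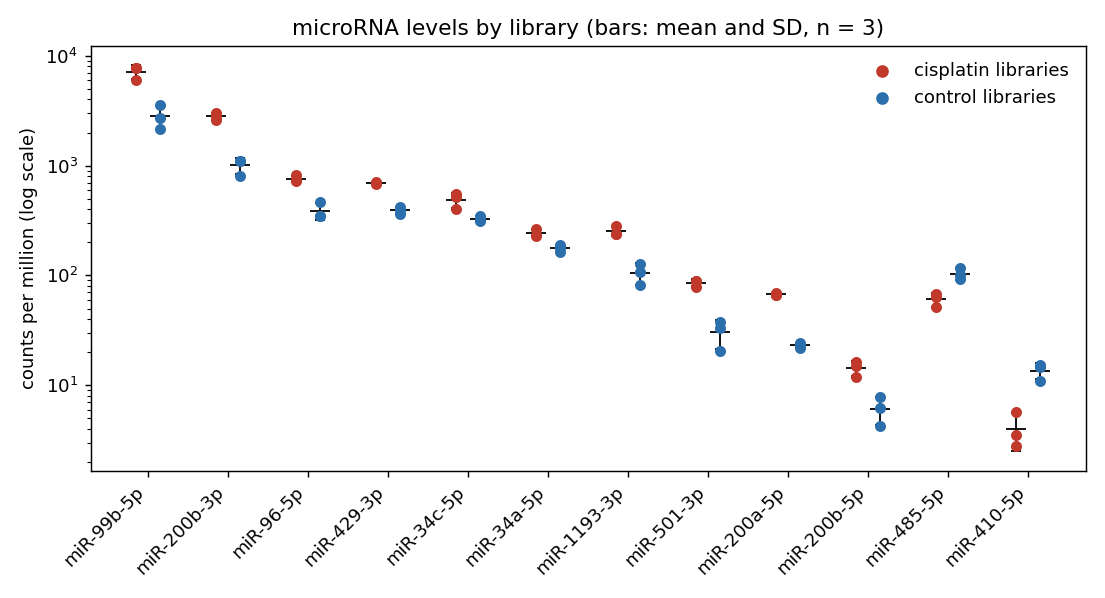
CPM of 12 microRNAs in each library on a log axis, red for cisplatin and blue for control; black bars give the mean and SD of 3 libraries. miR-485-5p and miR-410-5p are lower with cisplatin and the other 10 are higher. The groups do not overlap in any of the 12, but all 12 were picked from the microRNAs called. Over all 588 features tested, 28.2% did not overlap.

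Of 6 tested miR-34 strands, whose genes p53 is known to induce, 3 rose, where 4.79% of all microRNAs rose. miR-34c-5p, from chromosome 9 (mm9, chr9:50911139-50911215), was the most abundant of them, at 399, 518 and 549 CPM with cisplatin against 314, 348 and 320 CPM. It rose by 0.58 (SE 0.13, adjusted p = 0.0459). miR-34a-5p, from chromosome 4 (chr4:149442563-149442664), was at 229, 264 and 234 CPM against 188, 163 and 180 CPM, a rise of 0.45 (SE 0.11, adjusted p = 0.0483). miR-34b-3p, the neighbour of miR-34c at chr9:50911667-50911750, was at 15.1, 17.6 and 20.02 CPM against 11.99, 9.91 and 7.87 CPM, a rise of 0.81 (SE 0.20, adjusted p = 0.0471). The groups did not overlap for these 3 strands, as in 28.2% of all features, yet all 3 calls depended on single libraries. That of miR-34a-5p and that of miR-34b-3p were lost without any one of the 6 libraries, and that of miR-34c-5p without cisplatin library 2 or 3 or control library 1 or 3, with adjusted p-values of up to 0.157 for each. With the library index as a block, all 3 calls were lost, at adjusted p = 0.173 for miR-34a-5p, 0.106 for miR-34b-3p and 0.0828 for miR-34c-5p. miR-34b-5p (log2 change 0.54, adjusted p = 0.134), miR-34c-3p (1.13, adjusted p = 0.0519) and miR-34a-3p (1.24, adjusted p = 0.092) did not pass the test. The count of miR-34a-3p was 15 in each control library whatever its depth, as rows at the fill value of 5 would give. Its change is thus no measured fold. miR-34b-5p and miR-34c-5p differ at few bases, and the sources used here do not say how a read close to both was assigned. miR-449c-5p and miR-449a-5p, which carry the miR-34 seed as well, changed by 0.35 (adjusted p = 0.486) and 0.02 (adjusted p = 0.989).

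Of the 21 tested strands linked to p53, 4 rose and none fell, the median was 0.27, and 16 of 21 were above 0. Those above 0 include miR-34a-3p and miR-15a-3p, whose counts were 15 and 10 in each control library, as fill values would give. Over all microRNAs 4.79% rose, the median was -0.06, and 221 of 543 were above 0. The fourth was miR-145a-3p, the minor strand of a microRNA known from smooth muscle and also on the fibroblast list. It rose by 1.04 (SE 0.17, adjusted p = 0.00847) from a mean of 9.79 to 20.4 CPM, while its main strand miR-145a-5p changed by 0.27 (adjusted p = 0.361). Its call was lost without control library 1 (adjusted p = 0.0536). The count for the list was 0 without control library 1, 1 without control library 3 or cisplatin library 2 or 3, 2 without cisplatin library 1 and 4 without control library 2, and it was 1 with the library index as a block. Strands of the miR-15 and miR-16 family, which restrain the cell cycle, gave no call in 12 tested. miR-16-5p was at 4468, 4926 and 4517 CPM with cisplatin against 4608, 4653 and 6443 CPM. miR-21a-5p, often raised by stress and in tumours, was at 7596, 8513 and 7556 CPM against 8435, 8132 and 7943 CPM (log2 change -0.05, adjusted p = 0.756), and the groups overlapped.

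Of the 14 strands of the miR-290-295 cluster, 2 were called, both higher, where 4.79% of all microRNAs rose. The 14 together stood at 231700 to 245500 CPM with cisplatin and 259300 to 279800 CPM in the controls. The miR-290-295 microRNAs, whose main strands speed the G1 to S transition in stem cells, had a median log2 change of -0.19, and 12 of 14 strands were below 0, beside 322 of all 543 microRNAs. miR-295-3p, the most abundant of them, was at 132753, 140641 and 130908 CPM with cisplatin against 145603, 156733 and 156583 CPM, without overlap but with a log2 change of only -0.18 (adjusted p = 0.257). miR-294-3p stood at 14941, 14679 and 14943 CPM against 17023, 16891 and 17772 CPM, a change of -0.21 (SE 0.07, adjusted p = 0.117). In the opposite direction, miR-295-5p, a minor strand, and miR-290-5p, the more abundant strand of its hairpin, rose, by 0.50 (SE 0.10, adjusted p = 0.0241) and 0.44 (SE 0.11, adjusted p = 0.0483). miR-295-5p was at 1141, 1071 and 994 CPM against 813, 686 and 764 CPM. Neither call held without cisplatin library 1 or 2 or control library 1 or 3, that of miR-290-5p was also lost without control library 2, and the adjusted p reached 0.0919 for miR-295-5p and 0.171 for miR-290-5p. With the library index as a block they were 0.0728 and 0.101. In the miR-302-367 cluster, which marks the primed state, all 6 tested strands were above 0, beside 221 of all 543 microRNAs. Of the 6, 1 was called, where 4.79% of all microRNAs rose: miR-302c-3p rose by 0.77 (adjusted p = 0.0425) from a mean of 6.55 to 10.9 CPM. That call was lost without any one library except control library 2, with an adjusted p of up to 0.139, and with the library index as a block (adjusted p = 0.116).

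In the miR-17-92 cluster and its paralogs, which favour growth and survival, 1 of 27 strands changed, where 26 of all 543 microRNAs rose and 11 fell. miR-92a-1-5p, a minor strand, was at 893, 830 and 802 CPM with cisplatin against 1189, 1058 and 1525 CPM, a fall of 0.58 (SE 0.14, adjusted p = 0.0459) on the log2 scale. Its call was lost without any one library except control library 2, with an adjusted p of up to 0.135, and with the library index as a block (adjusted p = 0.0828). miR-92a-3p, the most abundant microRNA of all, was at 199806, 148758 and 163021 CPM against 177399, 180418 and 178906 CPM, and the groups overlapped. No let-7 or miR-98 strand passed the test in 12 tested. Members of this family rise as cells differentiate; let-7a-5p was at 179, 220 and 207 CPM against 173, 152 and 158 CPM (log2 change 0.33, adjusted p = 0.149). None of the 12 most abundant microRNAs was called, and their log2 changes lay between -0.26 (miR-291a-5p, adjusted p = 0.0858) and 0.22 (miR-183-5p, adjusted p = 0.316).

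The imprinted Dlk1-Dio3 locus on chromosome 12, whose microRNAs are expressed from the maternal chromosome, gave 8 of the 11 microRNAs called lower. Of its 83 strands tested, 8 fell, 1 rose, and 74 were below 0, with a median log2 change of -0.20. Over all microRNAs 2.03% fell, 322 of 543 were below 0, and the median was -0.06. The summed level of the locus overlapped between groups, at 143000, 124600 and 127200 CPM with cisplatin and 137600, 153600 and 132100 CPM in the controls. All 8 that fell were 5p strands, out of 38 5p and 45 3p strands tested. miR-410-5p (mm9, chr12:110981925-110982005, in an exon of the noncoding RNA Mirg) was at 5.72, 2.80 and 3.55 CPM with cisplatin against 14.7, 11.0 and 15.2 CPM. It fell by 1.79 (SE 0.27, adjusted p = 0.00833), and its call held without any one library. Its counts with cisplatin were 31, 21 and 11, so the size of that fall rests on low counts. Its partner miR-410-3p, the main strand at a control mean of 11140 CPM, changed by -0.15 (adjusted p = 0.478). miR-485-5p was at 67.4, 51.1 and 63.3 CPM against 101, 117 and 92.2 CPM, a fall of 0.77 (SE 0.16, adjusted p = 0.0256); the call was lost without cisplatin library 2 or 3 or control library 1 (adjusted p of up to 0.0984), and with the library index as a block (adjusted p = 0.079).

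miR-494-5p fell by 2.44 (SE 0.43, adjusted p = 0.0136) from a mean of 5.10 CPM, but its count was 5 in all 3 cisplatin libraries, so that size is not a measured fold. Its call was lost without cisplatin library 1 or 2 (adjusted p of up to 0.0619). It shares its seed with miR-410-5p. miR-541-5p, far more abundant, was at 10787, 10289 and 10238 CPM against 12591, 14040 and 12582 CPM, a fall of 0.33 (SE 0.08, adjusted p = 0.0471). Its call was lost without any one of the 6 libraries (adjusted p of up to 0.186), as were those of miR-323-5p, which fell by 0.75 (adjusted p = 0.0459, up to 0.157 without 1 library), and of miR-412-5p, which fell by 0.70 (adjusted p = 0.0425, up to 0.125). miR-495-5p and miR-370-5p fell by 1.13 (adjusted p = 0.0443) and 0.69 (adjusted p = 0.0483) and kept their calls only without control library 2 and only without cisplatin library 1, with adjusted p-values of up to 0.157 and 0.148. The level of miR-495-5p was low, at means of 2.08 CPM with cisplatin and 4.45 CPM in the controls. The number called lower in the locus was 1 without cisplatin library 2, 2 without cisplatin library 3 or control library 1, 3 without control library 3, 5 without control library 2, 6 without cisplatin library 1, and 2 with the library index as a block. That block ended the calls of miR-541-5p (adjusted p = 0.133), miR-412-5p (adjusted p = 0.103) and miR-370-5p (adjusted p = 0.116). Where both arms of a hairpin of the locus were tested, the 5p strand had the lower log2 change in 22 of 35, with a median difference of -0.16 between arms, beside 61 of 120 and -0.001 for hairpins elsewhere. The miR-466, miR-467, miR-669 and related microRNAs were listed by name for the cluster in the Sfmbt2 gene, which is abundant in early embryos and placenta. Of these, 28 were placed in that gene at a single locus. The list gave no call in 41 tested. At an unadjusted p under 0.05 in edgeR, 2 of 41 were lower, beside 44 of all 543 microRNAs. Of the 41, 37 were below 0, beside 322 of all 543 microRNAs, and the median was -0.19.

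Another group of increases was not shared by the strands around them. miR-99b-5p, at 7746, 7790 and 6011 CPM with cisplatin against 3567, 2699 and 2168 CPM, had the highest level with cisplatin of the microRNAs called higher and rose by 1.35 (SE 0.18, adjusted p = 0.00724). From its own hairpin (mm9, chr17:17967152-17967221, in no gene annotated on that strand) miR-99b-3p changed by -0.26 (adjusted p = 0.284), and its neighbour miR-125a-5p by -0.15 (adjusted p = 0.322). miR-1193-3p (chr12:110953881-110954001) was at 280, 239 and 238 CPM against 128, 108 and 81.3 CPM and rose by 1.25 (SE 0.18, adjusted p = 0.00724) inside the Dlk1-Dio3 locus. miR-501-3p, from an intron of Clcn5 (chrX:6818369-6818477), was at 89.9, 89.3 and 78.5 CPM against 37.5, 32.9 and 20.5 CPM, a rise of 1.504 (SE 0.22, adjusted p = 0.00833). Of 5 other strands of that Clcn5 cluster, none was called, and miR-500-3p, which has the same seed, changed by -0.01 (adjusted p = 0.989).

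miR-99b-5p, miR-501-3p and miR-1193-3p all hold the letters ACCCG near the 5′ end. The pattern was noticed after the values were seen and is given as a description. They are shown with miR-100-5p, miR-342-3p and miR-409-5p, which hold ACCCG as well, so that its place can be compared; capitals mark ACCCG. The miR-409-5p forms are reads of the deposited table and the others RefSeq forms.
miR-99b-5p: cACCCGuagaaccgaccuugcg
miR-100-5p: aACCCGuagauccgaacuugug
miR-501-3p: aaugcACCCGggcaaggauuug
miR-1193-3p: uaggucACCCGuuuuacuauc
miR-342-3p: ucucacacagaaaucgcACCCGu
miR-409-5p, 23 bases: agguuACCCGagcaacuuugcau
miR-409-5p, 32 bases: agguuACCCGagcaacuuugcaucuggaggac
ACCCG, searched on the strand as read, occurs in 7 of the 543 tested microRNAs (1.29%), and in 6 of the 7 it starts at base 12 or earlier. miR-100-5p, which differs from miR-99b-5p outside the shared seed, had a mean of 40.5 CPM with cisplatin and 14.9 CPM in the controls, a log2 change of 1.43 that did not pass the test (adjusted p = 0.13). miR-342-3p, which holds ACCCG near its 3′ end, changed by -0.01 (adjusted p = 0.971), and miR-1247-5p, where it starts at base 1, by -0.30 (adjusted p = 0.449).

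miR-409-5p as a sum changed by -0.27 (adjusted p = 0.317), but its read forms moved in opposite directions. The 23-base RefSeq form was at 178, 171 and 144.97 CPM with cisplatin and at 43.9, 30.8 and 20.7 CPM in the controls, a ratio of means of 5.18. The 32-base form, which has the same start and 9 more bases, was at 191, 155 and 114 CPM against 381, 508 and 437 CPM, a ratio of 0.346. It made up 33.2% to 38.7% of the microRNA's reads with cisplatin and 81.9% to 90.0% in the controls, and the exact permutation test gave p = 0.10 for that share, the smallest that 3 against 3 libraries allow. Among single microRNA read sequences of at most 25 bases with at least 100 counts over the 6 libraries, 207 of 3151 were higher in all 3 cisplatin libraries than in any control (6.57%). Of the 27 with ACCCG starting at base 2 to 12, 15 were. Of these 15, 11 belong to the 3 microRNAs on which the pattern was noticed and 4 to miR-409-5p, while the 4 other microRNAs in the count gave 0. The count thus describes the members that drew attention to the letters and is no test of them. The limit of 25 bases also leaves out the 32-base form of miR-409-5p, which was lower with cisplatin.

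**Figure D3:**
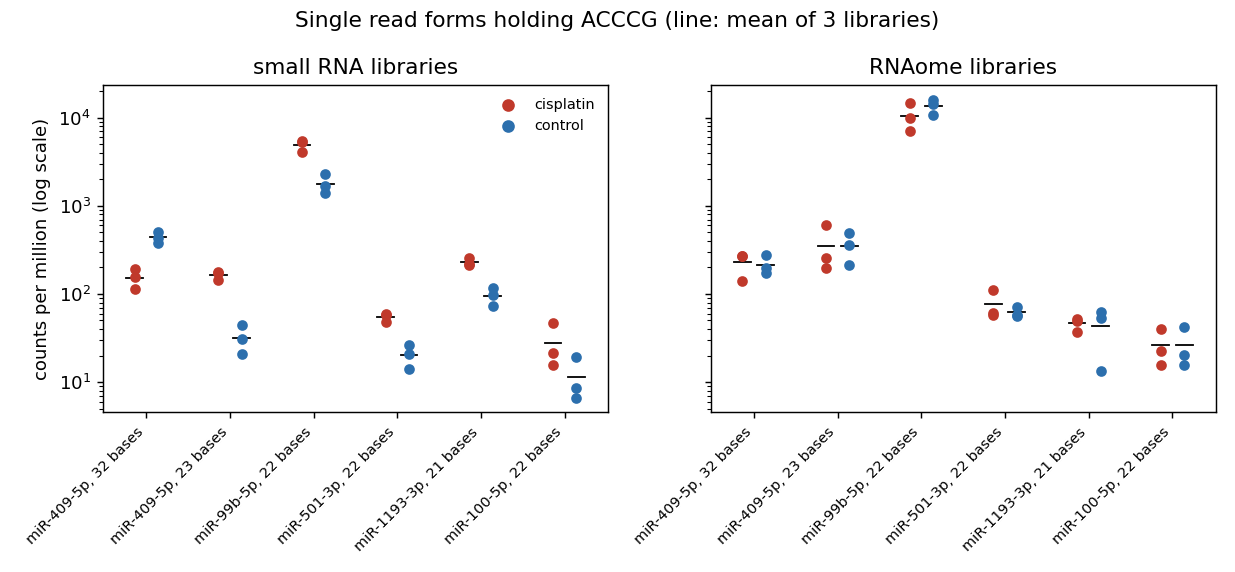
CPM of single read forms that hold ACCCG, in small RNA libraries (left) and RNAome libraries (right), on a log axis; red points are cisplatin libraries, blue points control libraries and the line is their mean. In the small RNA libraries the 21 to 23 base forms are higher with cisplatin, with ratios from 2.39 to 5.18, while in the RNAome libraries the ratios lie between 0.766 and 1.24.

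The RNAome libraries, made with another preparation from RNA of the same codes, did not show these increases. miR-99b-5p changed by -0.48 there (adjusted p = 0.491), and its log2 effect differed between library types by 1.83, with an SE of 0.38 and an adjusted p of 0.0257. That fit did not pair libraries of the same RNA code, and this call was lost with the RNA sample as a block. For miR-501-3p, miR-1193-3p and miR-100-5p the RNAome changes were 0.03, -0.02 and -0.48, and the differences of 1.48 (adjusted p = 0.096), 1.29 (adjusted p = 0.171) and 1.96 (adjusted p = 0.182) did not pass the test. The 23-base form of miR-409-5p was at 254, 197 and 603 CPM with cisplatin and at 359, 492 and 213 CPM in the controls of the RNAome libraries, so the groups overlapped there. The part of library preparation in these increases was not tested.

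Some strands of the miR-200b cluster, miR-96 and miR-34 were called higher in the small RNA libraries and also tested in the RNAome libraries. All of these had positive changes there, but none was called. Of 365 RNAome features, 5 were called in either direction (1.37%). The strands were chosen by their calls, and both library types carry the same RNA sample codes. These RNAome values are thus a description only. miR-200b-3p was at 1382, 1485 and 1714 CPM with cisplatin there against 1071, 962 and 543 CPM, without overlap (log2 change 0.83, adjusted p = 0.149). miR-200a-5p was at 54.2, 53.3 and 48.5 CPM against 37.4, 18.9 and 11.2 CPM, also without overlap (1.16, adjusted p = 0.13). miR-34c-5p changed by 1.21 (adjusted p = 0.0752), from 37.4, 61.3 and 35.9 CPM in the controls to 76.9, 108 and 137 CPM, and miR-34a-5p by 0.36 (adjusted p = 0.545). miR-429-3p (0.24, adjusted p = 0.733) and miR-96-5p (0.40, adjusted p = 0.706) overlapped between groups there, and miR-200a-3p changed by -0.55 (adjusted p = 0.519). The difference between library types was not called for miR-200b-3p, miR-200a-5p, miR-429-3p, miR-96-5p, miR-34c-5p or miR-34a-5p, with adjusted p-values of 0.325 to 0.879. Of 498 features tested for such a difference, 7 were called (1.41%), and 0 were called with the RNA sample as a block. Without 1 RNA sample the number was 3 (cisplatin 3 left out), 1 (cisplatin 1 left out) or 0 (any other).

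**Figure D4:**
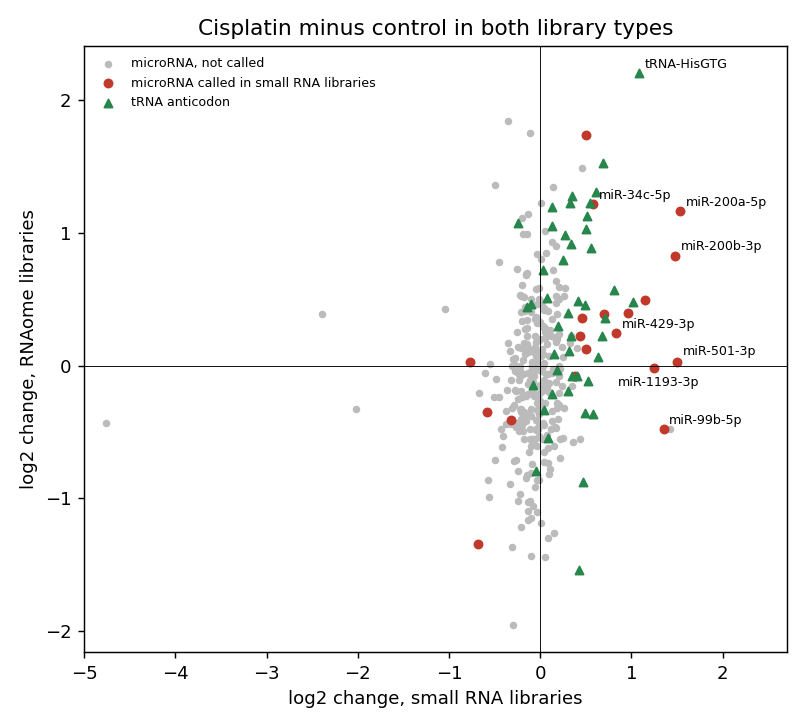
Log2 change with cisplatin in small RNA libraries (horizontal) and RNAome libraries (vertical) for each feature tested in both; red points are microRNAs called in the small RNA libraries and green triangles are tRNA anticodons. miR-99b-5p, miR-501-3p and miR-1193-3p lie at -0.48, 0.03 and -0.02 on the vertical axis, while miR-200a-5p, miR-200b-3p and tRNA-HisGTG lie at 1.16, 0.83 and 2.20.

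Other increases had smaller levels or were less stable. miR-27a-5p, the minor strand of a microRNA that restrains fat cell formation, was at 39.1, 39.5 and 36.2 CPM with cisplatin against 23.8, 20.9 and 24.7 CPM, a log2 rise of 0.72 (SE 0.13, adjusted p = 0.0136); its call was lost without control library 1 (adjusted p = 0.0552) and with the library index as a block (adjusted p = 0.0728). miR-741-3p, from a cluster on chromosome X known for expression in testis, rose by 1.15 (SE 0.17, adjusted p = 0.00833) from a mean of 4.87 to 10.9 CPM, and lost its call without control library 1 (adjusted p = 0.0511); it was chosen after its values were seen. miR-6239 rose by 1.10 (adjusted p = 0.0256), but up to 40.5% of its counts in a library were values of 5. Its call was lost without cisplatin library 2 or 3 or control library 1 or 3 (adjusted p of up to 0.117) and with the library index as a block (adjusted p = 0.0522), and its change lay between 0.21 and 1.72 over the alternatives. The largest fitted increases, of 2.12 in miR-1954, 1.80 in miR-1843a-5p and 1.60 in miR-132-5p, are no measured folds, since all control counts of these 3 were 5 and the cisplatin levels lay at 2.00 to 3.61 CPM. Their calls were lost without control library 1 or 3, and those of miR-1843a-5p and miR-132-5p also without cisplatin library 1 or 3 (that of miR-132-5p without cisplatin library 2 as well), with adjusted p-values of up to 0.198. miR-224-5p rose by 0.69 (adjusted p = 0.0483) and lost that call without any one library (up to 0.169). miR-3963 was at 1678, 1226 and 1646 CPM against 1022, 1146 and 1037 CPM, a rise of 0.51 (adjusted p = 0.0498) that was lost without cisplatin library 1 or 3 or control library 1 or 3 (up to 0.17); it was also called in the RNAome libraries, at 413, 428 and 550 CPM against 140.7, 167.2 and 105.5 CPM (log2 change 1.74, adjusted p = 0.0173). Among the falls outside the Dlk1-Dio3 locus, miR-26b-3p and miR-676-5p, both minor strands, fell by 0.59 (adjusted p = 0.0483) and 0.58 (adjusted p = 0.0459). The first was lost without any one library, and the second was kept only without cisplatin library 2, with adjusted p-values of up to 0.157 and 0.143. With the library index as a block the adjusted p was 0.133 for miR-26b-3p and 0.118 for miR-676-5p.

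Of 45 tRNA anticodons, 13 rose and none fell. Reads from tRNAs numbered 62.9, 60.6 and 78.1 per 1000 microRNA counts in the cisplatin libraries and 51.4, 51.4 and 50.4 in the controls, without overlap; the exact two-sided permutation test gave p = 0.10, the smallest that 3 against 3 allow. Of the 45 anticodons, 40 were above 0 and 32 were not called, and the median log2 change was 0.34, where 6.63% of all features rose. The most abundant reads of 3 of the anticodons that rose are given as in the deposited table, to show which pieces of the tRNA were read; capitals mark the terminal CCA that is added to every mature tRNA, and the others start or end inside the tRNA.
tRNA-HisGTG read 1: uagugguuaguacucugcg
tRNA-HisGTG read 2: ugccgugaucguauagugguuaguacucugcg
tRNA-GlyTCC read 1: ucguuucccggccaacgcaCCA
tRNA-GlnCTG read 1: cugaauccagcgauccgagu
tRNA-GlnCTG read 2: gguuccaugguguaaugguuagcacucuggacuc
The first HisGTG read is contained in the second, which is a long 5′ fragment, and the GlyTCC read is a 3′ fragment.

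HisGTG reads, from the tRNA that carries histidine, were at 4199, 5415 and 5805 CPM with cisplatin and at 2541, 2836 and 1902 CPM in the controls. They rose by 1.08 (SE 0.17, adjusted p = 0.00847). The 32-base fragment was at 619, 902 and 835 CPM against 244, 218 and 117 CPM, a ratio of means of 4.06, and the 19-base read inside it was at 776, 1120 and 1270 CPM against 358, 369 and 197 CPM, a ratio of 3.43. GlyTCC reads, of which 74.3% were the single 22-base 3′ fragment, were at 725, 632 and 722 CPM against 363, 353 and 311 CPM, a rise of 1.02 (SE 0.11, adjusted p = 0.00184). ProTGG rose by 0.69 (SE 0.10, adjusted p = 0.00833). GlnCTG rose by 0.81 (SE 0.13, adjusted p = 0.00847), and its 34-base 5′ fragment at 252, 127 and 199 CPM against 33.2, 57.6 and 106 CPM had a ratio of 2.93 where its 20-base read had 1.28. The GlnCTG call was lost without control library 1 (adjusted p = 0.0511), while those of HisGTG, GlyTCC and ProTGG held without any one library. The count of anticodons called higher was 4 without control library 1 or 3, 5 without cisplatin library 3, 6 without cisplatin library 1, 13 without cisplatin library 2 and 19 without control library 2, and it was 7 with the library index as a block.

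Long and short tRNA reads were compared apart. Reads of 30 bases or more numbered 27.6 ± 5.64 per 1000 microRNA counts (SD, n = 3) against 19.9 ± 1.75 (SD, n = 3), and those of 25 bases or fewer 36.0, 33.1 and 40.8 against 28.3, 30.9 and 27.1. Reads ending in CCA had a log2 ratio of means of 0.30 and the others 0.47, and without HisGTG the ratio for all tRNA reads was still 0.34. For each of these classes the groups did not overlap and the exact permutation test gave p = 0.10. The few reads of 26 to 29 bases, at 2.50, 3.08 and 3.23 against 2.28, 2.56 and 2.27, overlapped (exact permutation p = 0.20). In the RNAome libraries HisGTG rose as well, from 4556, 4355 and 4351 CPM to 9363, 24531 and 26965 CPM (log2 change 2.20, adjusted p = 0.0173). GlyTCC changed by 0.48 there (adjusted p = 0.656) with overlapping groups, and ProTGG by 1.53 (adjusted p = 0.0752) without overlap. Some anticodons called higher in the small RNA libraries went the other way in the RNAome libraries. ArgCCT changed by -1.54 there (adjusted p = 0.0646), ThrCGT by -0.37, ThrAGT by -0.12 and AlaAGC by -0.08. The remaining called anticodons were above 0 there. Since these are bulk libraries, more tRNA reads and fewer microRNA reads per cell cannot be told apart, nor can a change in the number of cells of a type and in RNA per cell.

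Beside their levels, some microRNAs changed in the composition of their reads. Among 129 microRNAs with at least 1000 counts in every library, the share of the most abundant read did not overlap between groups in 44 (34.1%), and the median change was 0.31 percentage points. For miR-429-3p the 22-base RefSeq form made up 64.2%, 64.5% and 62.4% of reads with cisplatin and 55.8%, 51.8% and 52.1% in the controls, while the form 1 base shorter at the 3′ end made up 32.0% to 33.1% against 40.0% to 44.0%. For miR-200b-3p the most abundant form, 1 base longer than the RefSeq form, made up 83.4% to 84.1% against 77.3% to 79.5%. For miR-99b-5p the RefSeq form made up 67.6% to 69.5% against 62.4% to 64.3%. The shares of the main forms of miR-96-5p, miR-200a-5p and miR-1193-3p overlapped between groups. The exact permutation test gave p = 0.10 for each of the 3 non-overlapping shares.

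The transcripts that host microRNAs were examined in the mRNA libraries. Of 66 host transcripts that contain a tested microRNA on the same strand, 8 rose and 21 fell, where 18.7% of all 13864 genes rose and 19.4% fell. The number that rose was 4 without cisplatin library 2 and 5 without cisplatin library 1. Mirg, the noncoding host of miR-410 and miR-541, was at 6.32, 5.32 and 7.07 CPM with cisplatin against 13.5, 15.0 and 12.5 CPM, a log2 fall of 1.14 (SE 0.14, adjusted p = 2.11e-05). Its 11 tested microRNA strands had a median of -0.30, and 3 of them were called lower. Rian, the next noncoding RNA of the Dlk1-Dio3 locus, fell by 0.47 (SE 0.09, adjusted p = 0.000613), with a median of -0.46 in its 4 strands. Meg3, at the start of the locus, was at 115, 92.7 and 104 CPM against 101, 113 and 98.6 CPM and changed by -0.01 (adjusted p = 0.921). Its 2 tested strands had a median of -0.44, and none was called.

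Host and microRNA differed in size or direction elsewhere. Of the 21 hosts that fell, 16 had a median below 0 in their microRNAs. Of the 8 that rose, 6 had a median above 0. Over all 543 microRNAs taken singly, 322 were below 0 and 221 above 0. Among the called hosts that went the other way, 3110082I17Rik fell by 0.365 with a median of 0.351. Myh7 rose by 0.864 while its microRNA changed by -0.403. Sfmbt2, a Polycomb-group gene, fell by 0.95 (SE 0.10, adjusted p = 4.62e-06), while its 28 tested strands had a median of -0.20. Mir17hg, the primary transcript of the miR-17-92 cluster, fell by 0.56 (SE 0.08, adjusted p = 0.000106) with a median of -0.09 in its 6 strands. Fam114a1 rose by 0.89 (adjusted p = 0.0104) and its miR-574-3p by 0.66 (adjusted p = 0.0459). Chpf2, an enzyme of chondroitin synthesis, rose by 0.56 (adjusted p = 0.00394) and its miR-671-3p by 0.70 (adjusted p = 0.0459). The calls of both microRNAs depended on single libraries: miR-574-3p lost its call without any one library and miR-671-3p without cisplatin library 1 or 3 or control library 1 or 3, each with an adjusted p of up to 0.157. Clcn5, a chloride transporter and the host of miR-501, changed by -0.14 (adjusted p = 0.412), and Mest, the imprinted host of miR-335, by -0.03 (adjusted p = 0.791) while miR-335-3p rose by 0.38 (SE 0.09, adjusted p = 0.0459). miR-335-3p lost that call in 5 of 6 fits without 1 library, all but that without cisplatin library 3. Across the 66 hosts the host's change and the median change of its microRNAs had Pearson's r = 0.315 and Spearman's rho = 0.345; hosts share libraries and depth, and this is a description only.

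**Figure D5:**
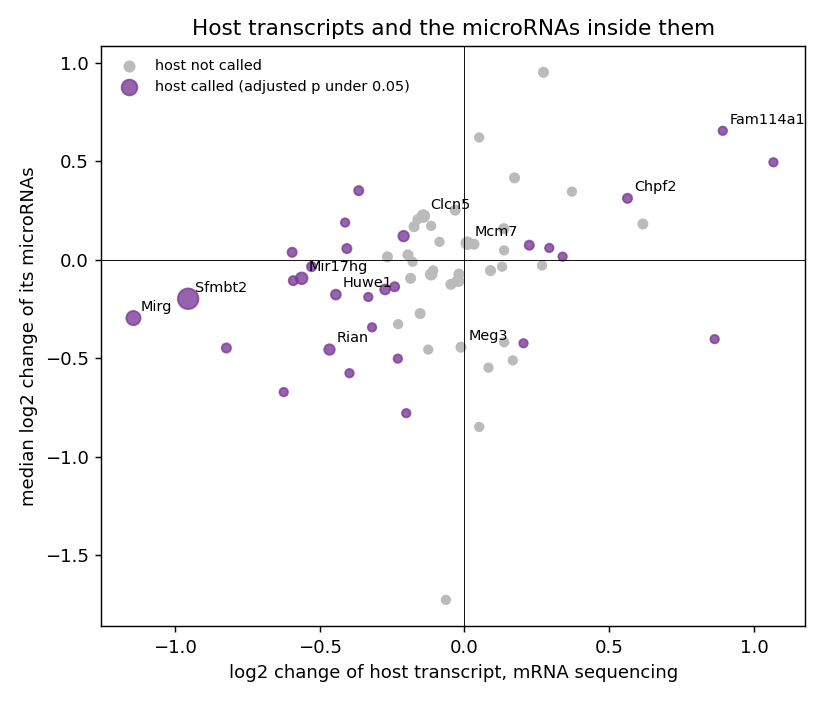
Log2 change of 66 host transcripts in mRNA sequencing (horizontal) against the median log2 change of the microRNAs inside them in small RNA sequencing (vertical); point size grows with the number of strands, and purple points are hosts called. Mirg, Sfmbt2, Mir17hg and Rian lie below 0 on both axes and Fam114a1 and Chpf2 above 0 on both. Other called hosts lie on opposite sides of 0, such as Myh7 at 0.864 and -0.403.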

How the data were processed

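The counts per read sequence were deposited by the authors as whole numbers; Bowtie, TopHat, edgeR and build mm9 appear in the submitters' processing notes, without roles or versions, and the trimming is not given in these sources. In the deposited counts no microRNA or tRNA row was below 5, and 1479 rows held adapter bases (1.42% to 1.68% of counts). Total RNA was extracted and the libraries made with an Illumina small RNA kit, per the labels' protocols. Here rows were summed per mature microRNA and per tRNA anticodon, and 4398 rows marked Fragment were left out. edgeR 4.0.16 was run in R 4.3.3 with its expression filter, TMM scaling and the quasi-likelihood test on 3 against 3 libraries, and p-values were adjusted by Benjamini-Hochberg over all 588 features. The mRNA counts and the RNAome counts, also deposited as whole numbers, were fitted the same way, and the difference between library types as an interaction over 12 libraries. Exact permutation tests used SciPy 1.17.1. The test was checked on simulated data, where it called 93.7% of 2-fold and 55.1% of 1.5-fold changes among 578 features. Hairpin positions and hosts came from GENCODE vM1 on the mm9 assembly. Named features were the 15 largest increases and decreases called with non-overlapping groups and a mean log2 CPM of 3.3 or more, the 12 most abundant microRNAs, up to 4 members of each list by adjusted p, and miR-34, miR-294, miR-21 and miR-16. Others that are named, such as miR-741-3p, miR-1954, miR-1843a-5p, miR-132-5p, miR-224-5p, miR-3963, miR-335-3p, miR-574-3p, miR-671-3p, miR-323-5p, miR-495-5p, tRNA-ProTGG and those set beside a neighbour, were chosen after their values were seen. The members and lists were chosen with earlier results of these data known. DESeq2 1.42.0, other scalings and filters, microRNAs alone, the most abundant row per name, Fragment rows kept, an index block and leaving out each library were the alternatives.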

Additional observations from a re-analysis of the deposited data

Results flagged for a closer look

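The effect of cisplatin differed between small RNA and RNAome libraries for 7 features by the interaction test (edgeR, adjusted p = 0.0257 for each). For miR-99b-5p the small RNA effect was higher by 1.83 on the log2 scale. It was higher by 2.65 for miR-1197-3p, 1.5 for miR-126-5p and 1.18 for miR-379-3p, of which miR-126-5p fell by 1.44 in the RNAome libraries and changed by 0.05 in the small RNA libraries. The difference was -2.76 for miR-411-3p, -1.87 for miR-1957a and -1.23 for miR-3096b-5p, of which miR-1957a rose by 1.75 in the RNAome libraries. miR-1197-3p and miR-411-3p did not pass the expression filter in the RNAome libraries alone. The sizes of their differences thus rest on low counts there. Without 1 RNA sample the number called lay between 0 and 3, and with the RNA sample as a block it was 0.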

How the results depend on the processing

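The direction of the 29 named calls was kept in all 488 values under the alternatives, and 337 of these stayed past the threshold; of 777 values for the 47 named features without a call, 15 passed it. Only miR-200a-5p, miR-200b-3p and tRNA-GlyTCC kept their calls under every alternative other than leaving out a library, and those 3 also held without any one library. Keeping Fragment rows raised the features tested from 588 to 4223 and left 3 microRNAs higher, 0 lower and 1 anticodon higher, with 0 calls in the miR-290-295, p53-linked and Dlk1-Dio3 lists and 2 in the miR-200 and miR-183 clusters. With the library index as a block, 11 microRNAs were higher, 2 lower and 7 anticodons higher, with 0 calls in the miR-290-295 list, 1 in the p53-linked list and 2 lower in the Dlk1-Dio3 locus. With library totals alone 6 microRNAs were lower and 1 p53-linked strand higher; with at least 50 counts in 3 libraries 6 were lower, 1 of the miR-290-295 list higher and 3 of the Dlk1-Dio3 locus lower; with microRNAs alone 4 were lower, all 4 in the Dlk1-Dio3 locus; with no filter 1 of the miR-290-295 list was higher. Setting the values of 5 to 0, an alternative chosen after seeing the data, gave 19 microRNAs lower and 7 p53-linked strands higher, and kept all 50 calls. Leaving out 1 library gave 7 to 27 microRNAs higher (16 without cisplatin library 1 and 10 without control library 3), 2 to 7 lower, 4 to 19 anticodons higher, 0 to 2 calls in the miR-290-295 list, 0 to 4 in the p53-linked list, 1 to 6 lower in the Dlk1-Dio3 locus, 4 to 5 in the miR-200 and miR-183 clusters, and 4 to 7 host transcripts higher. Differences between library types numbered 13 with DESeq2's size factors, 0 with the RNA sample as a block and 0 to 3 without 1 sample. DESeq2 gave 28 microRNAs higher and 9 lower. Where no cause follows from the setting itself, the cause was not tested.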

Other observations

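In control library 2, miR-5115 stood at 1586 CPM and miR-6243 at 594 CPM, against 66.5 to 125 CPM and 4.94 to 11.6 CPM in the other 5 libraries. Among tRNA reads, those of ArgACG ended in CCA in 48.8% to 50.7% of counts with cisplatin and 76.5% to 80.8% in the controls, and those of HisGTG in 0.545% to 0.725% against 1.32% to 1.96%. These shares were not tested.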
